A study of Homo sapiens with 4 samples.

Results

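The genes described here encode the complexes that move, tether and sort membranes on the route to the lysosome: HOPS and CORVET, ESCRT-0 to ESCRT-III with VPS4 and ALIX, retromer with its sorting nexins, and GARP. The list holds 47 genes of the 20037 protein-coding genes on the GRCh38.p14 RefSeq annotation, and all 47 symbols matched an entry. Its rule uses gene identity and no measured value, although it was drawn up with earlier results of these data known. ChIP-seq, the sequencing of chromatin fragments pulled down with an antibody, was used to map the transcription factor USF1 in Huh7, a human hepatocellular carcinoma cell line. There were 4 libraries, of which 2 were USF1 pull-downs (IP 1 and IP 2) and 2 were input chromatin taken before the pull-down (input 1 and input 2). The series' design text says that the cells overexpressed USF1, and the IP used an anti-FLAG antibody, per the labels' protocols. The data are 2 peak lists: list 1 sets IP 1 against input 1 and list 2 sets IP 2 against input 2. The labels do not say that USF1 carried the FLAG tag, and cells without the overexpressed factor were not analysed here. Expression was not measured in these libraries, so the hepatocyte identity of the cells and the level of USF1 could not be checked against marker genes.

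HOPS and CORVET are tethers of related build that bring endosomes and lysosomes together before membranes fuse. The ESCRT complexes gather ubiquitinated cargo on the endosome and then pinch off the vesicles that carry it inward. Retromer and its sorting nexins pull cargo back out of the endosome, and GARP tethers the returning carriers at the trans-Golgi network. USF1 is a basic helix-loop-helix leucine zipper protein that binds the E-box CACGTG. An extended form of this sequence, GTCACGTG, is typical of many lysosomal gene promoters.

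The libraries kept between 43562726 and 47165647 tags at 1 tag per position, and the lists held 14300 (list 1) and 27325 (list 2) peaks. A peak's fold is the enrichment that the peak caller gives for the IP over the expected background. Its false discovery rate (FDR, in percent) is the caller's estimate from a search with both libraries exchanged. All values of single peaks were taken from the authors' lists as they stand. FDRs ran up to 100% in list 1, and the median FDR of the trafficking genes' peaks was 100% in list 1 (23 peaks) and 3.17% in list 2 (39 peaks). The labels do not say whether the replicates came from separate cultures. With 1 list per replicate and no input tags per peak, no test was made. Each value is given in both lists. Counts of genes stand beside the same count over all protein-coding genes where that was computed.

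USF1 peaks were found at most of the trafficking genes in list 2 and at just under 50% of them in list 1. A peak was assigned to a gene when its centre lay in the gene or within 1 kb of it. By this rule 23 of the 47 genes (48.9%) had a list 1 peak, where the share of all protein-coding genes was 25.9%, and 33 (70.2%) had a list 2 peak, where it was 47.0%. A shared peak is a pair of peaks of the same gene, 1 from each list, that overlap by at least 1 bp. There were 17 genes with a shared peak (36.2%), beside 16.8% of all protein-coding genes. A further 2 genes, VPS41 and TSG101, had peaks in both lists that did not overlap. Over all 20037 genes, 5183 had a list 1 peak, of which 3360 had a shared peak and 899 had no list 2 peak. The remainder had peaks in both lists that did not overlap. The count of 2 is not read as a result about the trafficking genes. Of the others, 14 (29.8%) had a peak in list 2 alone (25.6% of all genes), 4 (8.51%) in list 1 alone (4.49%), and 10 (21.3%) had none (48.5%). The median length of the trafficking genes was 31.2 kb and that of all protein-coding genes 24.1 kb.

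Peaks at the ends of genes were counted on their own as well. A gene-end peak has its centre within 1 kb of either end of the gene. Such peaks were present at 18 of the 47 genes in list 1 (38.3%, with 14.9% of all genes), at 30 in list 2 (63.8%, with 30.1%), and shared at 15 (31.9%, with 11.3%). Among the genes with a shared gene-end peak, both folds reached 8 or more at 4 (8.51% of the 47, with 2.07% of all genes): VPS33A, VPS37B, VPS26A and SNX2. Both FDRs were 5% or lower at 3 genes (6.38%, with 1.08%), the same 4 less SNX2.

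**Figure D1:**
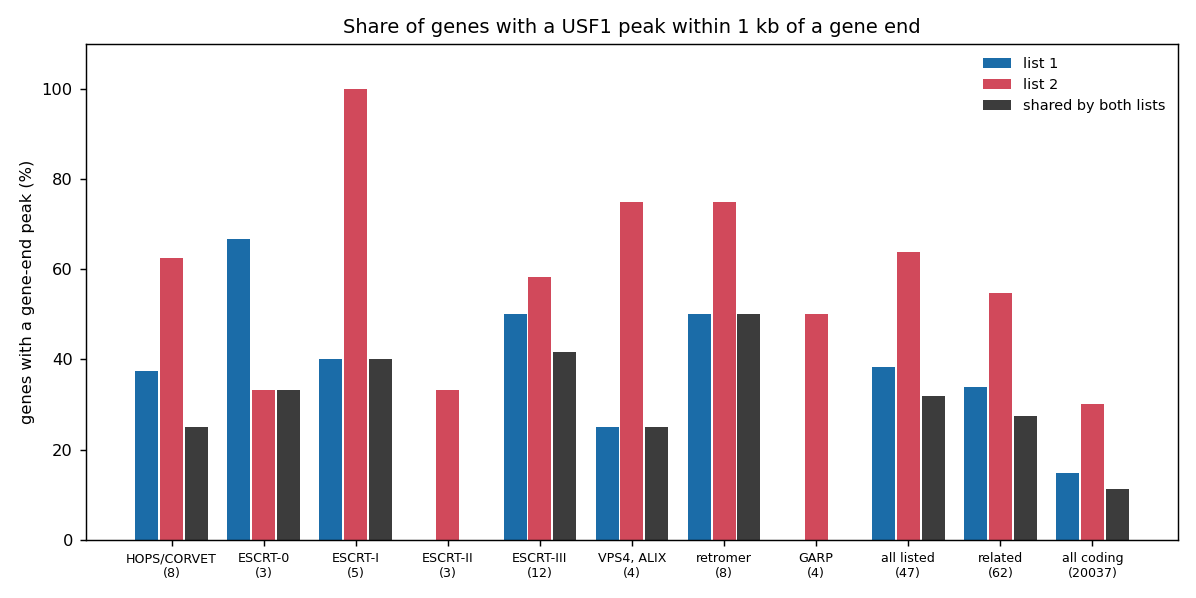
Percentage of genes with a peak centre within 1 kb of a gene end, for list 1, list 2 and peaks shared by both, with the number of genes in parentheses. The 8 retromer genes and 12 ESCRT-III genes had shared peaks in 50% and 41.7% of cases, all 47 listed genes in 31.9%, and all protein-coding genes in 11.3%.

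Shared gene-end peaks were spread over most of the complexes. Retromer and its sorting nexins had them at 4 of 8 genes, ESCRT-III at 5 of 12, ESCRT-I at 2 of 5, HOPS and CORVET at 2 of 8, ESCRT-0 at 1 of 3, and VPS4 with ALIX at 1 of 4. ESCRT-II (3 genes) and GARP (4 genes) had none. The share over all protein-coding genes was 11.3%. Groups of this size allow no order among the complexes, and none of 3 or 4 genes is not read as a difference from that share.

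Sequence around the gene start was available for 36 of the 47 genes, as RefSeq windows (GRCh38.p14) from 250 bases before the start to 50 after it. CACGTG reads the same on both strands. It was present in 8 of the 36 genes, which is 22.2%, and in 10.9% of all 15843 protein-coding genes with such a window. The extended GTCACGTG, searched on both strands and always holding CACGTG, was present in 7 of the 36 (19.4%, with 4.06% of all genes). The sites of the 8 genes are shown with up to 10 bases on each side, 5′ to 3′ on the strand of the gene, with the E-box in capitals, because the peak summits are set against them below.
VPS8: tgggtgcggtCACGTGggccggcggt
VPS37B: gggctggcgtCACGTGtcccccccgc
CHMP4A: tggcttgggtCACGTGacaccggtgg
PDCD6IP: gcgacaccttCACGTGaccgcggaca
VPS16: gcggcctcgcCACGTGacccggacgg
TGFBRAP1: gcggccgcccCACGTGacgggaagcg
VPS36: cggtcggtagCACGTGgcgtggggcg
VPS11, upstream site: agctgccgacCACGTGattcgctggc
VPS11, downstream site: tggctcagctCACGTGacaaagctcc

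The E-boxes of VPS8, VPS37B, CHMP4A and PDCD6IP lay under shared peaks. VPS16 had its E-box under a peak of list 1 alone, and TGFBRAP1 and VPS36 under peaks of list 2 alone. VPS11 had neither list's peak over its pair of sites. All but VPS36 and the upstream site of VPS11 were part of GTCACGTG.

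**Figure D2:**
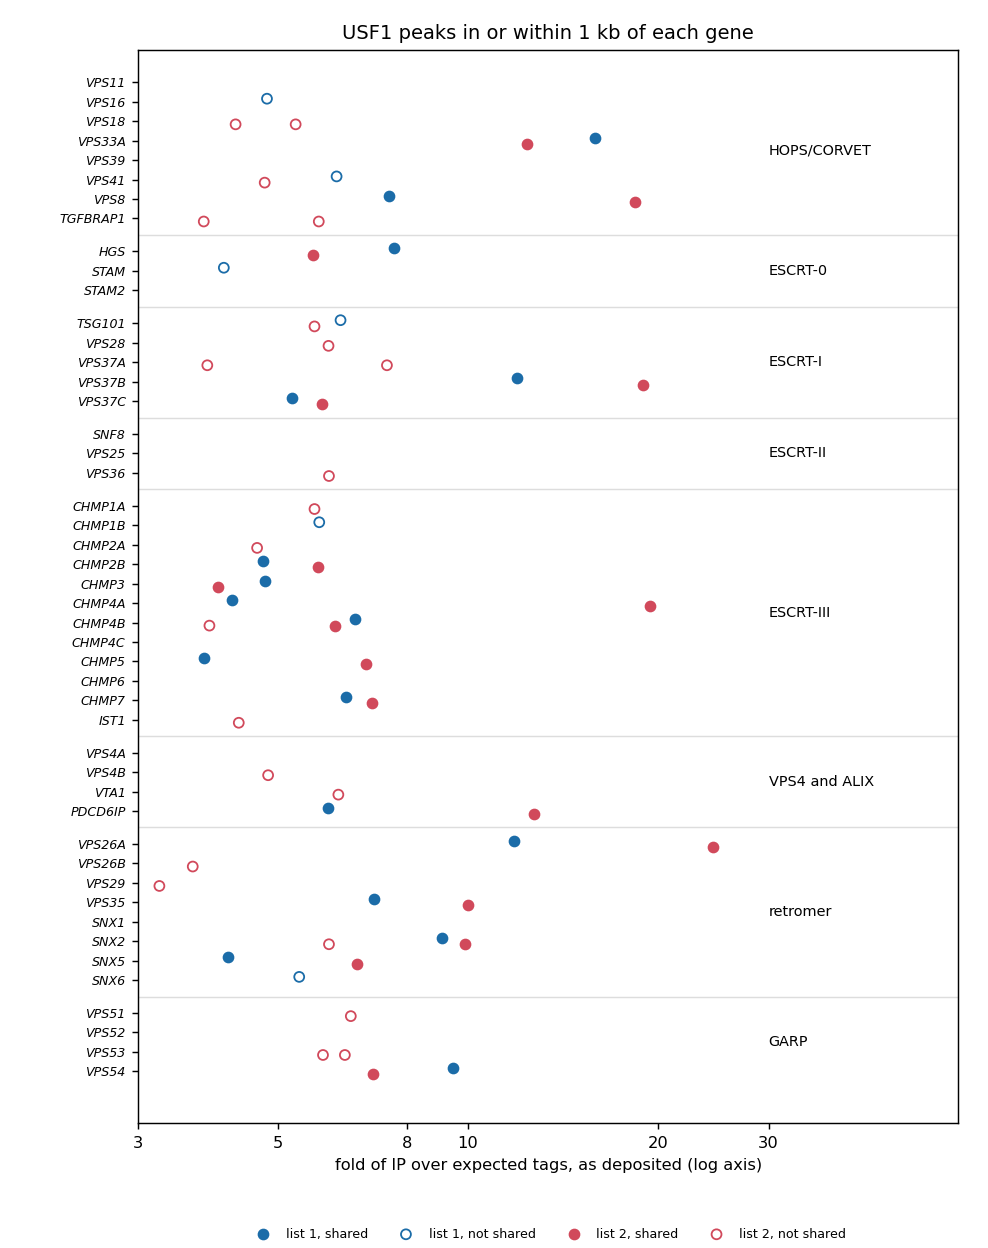
Fold of every peak in or within 1 kb of each of the 47 genes (log axis), grouped by complex, with filled points for peaks that overlap a peak of the other list and open points for those that do not. The highest point is VPS26A in list 2 (24.49-fold), and 10 genes have no point.

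Among the HOPS and CORVET genes, the clearest peaks lay at VPS33A and VPS8. VPS33A, the core subunit that binds the SNARE proteins of the fusing membranes, had 165 tags at 15.89-fold in list 1 and 177 tags at 12.43-fold in list 2. These peaks had FDRs of 0.89% and 0.21%, and their summits lay 10 bp apart. The list 1 peak spanned positions 122265752 to 122267069 of chromosome 12, with its centre 83.5 bp inside the end of the gene. By fold in list 1, it ranked 76th of 2265 genes with a shared gene-end peak, the highest rank of the trafficking genes there.

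VPS8, which is specific to CORVET on early endosomes, had 41 tags at 7.5-fold in list 1 and 78 tags at 18.42-fold in list 2. The FDR was 100% in list 1 and 0.23% in list 2. Its E-box begins 17 bases downstream of the RefSeq start, and the summits lay 28.5 bp downstream (list 1) and 12.5 bp upstream (list 2) of the middle of it. The start window is shown because VPS8 had the highest lower fold of the HOPS and CORVET genes with a matched window (chr3:184811916-184812215, + strand, E-box in capitals).
VPS8: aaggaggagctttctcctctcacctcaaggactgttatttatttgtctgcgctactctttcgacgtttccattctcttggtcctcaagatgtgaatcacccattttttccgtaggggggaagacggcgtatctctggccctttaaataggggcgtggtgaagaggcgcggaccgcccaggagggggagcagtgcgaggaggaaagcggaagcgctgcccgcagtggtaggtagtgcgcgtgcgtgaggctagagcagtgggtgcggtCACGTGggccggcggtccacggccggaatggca

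The other 6 HOPS and CORVET genes had no shared peak. VPS16, which binds VPS33A in the core, had a list 1 peak of 4.8-fold (87 tags, FDR 100%) that also lay near PCED1A. Its summit was 12.5 bp downstream of the E-box. VPS18, a core subunit with a RING domain, had list 2 peaks of 5.33-fold at one end (112 tags, FDR 1.48%) and 4.28-fold 1025.5 bp inside the gene. TGFBRAP1, the other CORVET-specific subunit, had list 2 peaks of 5.8-fold near its start (138 tags, FDR 8.54%) and 3.81-fold inside the gene. The summit near its start lay 95.5 bp upstream of the E-box. VPS41, specific to HOPS, had a list 2 peak at its start (4.76-fold, FDR 5.37%) and a list 1 peak far inside the gene (6.19-fold, FDR 100%).

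VPS39, specific to HOPS, and VPS11, a core RING-domain subunit, had no peak. At VPS11 the nearest peak centre was 13582 bp from the gene in list 1 and 13648 bp in list 2. Its start window holds 2 copies of CACGTG and is shown as the promoter with the motif and without a peak (chr11:119067568-119067867, + strand, E-boxes in capitals).
VPS11: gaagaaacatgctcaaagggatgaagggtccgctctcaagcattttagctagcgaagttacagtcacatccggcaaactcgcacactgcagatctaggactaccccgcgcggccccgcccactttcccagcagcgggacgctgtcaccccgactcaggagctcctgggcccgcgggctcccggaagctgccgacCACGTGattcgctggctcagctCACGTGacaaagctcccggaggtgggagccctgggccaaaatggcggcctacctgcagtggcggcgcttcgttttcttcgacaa

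In the cargo-binding ESCRT complexes, VPS37B of ESCRT-I carried the strongest peak. VPS37B, 1 of the VPS37 paralogues that stabilise ESCRT-I, had 120 tags at 11.98-fold in list 1 and 137 tags at 18.97-fold in list 2. The FDRs were 4.11% and 0, and the centres lay just outside the gene. The summits were 0.5 bp upstream (list 1) and 10.5 bp downstream (list 2) of the middle of the E-box, so both lay within 11 bp of it. The start window is shown for that reason (chr12:122896075-122896374, − strand).
VPS37B: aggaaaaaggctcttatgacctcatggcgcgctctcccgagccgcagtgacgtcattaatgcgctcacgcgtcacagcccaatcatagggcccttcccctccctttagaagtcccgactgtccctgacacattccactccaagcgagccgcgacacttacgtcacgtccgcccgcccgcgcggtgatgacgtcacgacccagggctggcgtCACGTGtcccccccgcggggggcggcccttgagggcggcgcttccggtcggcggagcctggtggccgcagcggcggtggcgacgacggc

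VPS37C, its paralogue, had more tags at a lower fold: 167 at 5.25-fold in list 1 (FDR 100%) and 169 at 5.87-fold in list 2 (FDR 0.24%). Its peaks were 1869 and 1976 bp wide, about 2 times the width of the VPS37B peaks (935 and 1042 bp), and their summits lay 363 bp apart. VPS37A, the third paralogue on the list, had list 2 peaks of 3.86-fold at an end it shares with CNOT7 and 7.44-fold inside the gene. VPS28, another ESCRT-I subunit, had a list 2 peak of 6.01-fold (FDR 2.38%) near TONSL. TSG101, the subunit that binds ubiquitin, had 95 tags at 5.71-fold at its start in list 2 (FDR 0.94%). Its list 1 peak of 6.28-fold lay 1641 bp inside the gene and did not overlap it.

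ESCRT-0 had a shared peak at 1 of 3 genes and ESCRT-II at none of 3, where 16.8% of all protein-coding genes had one. HGS, the ESCRT-0 subunit that recognises ubiquitinated cargo, had 102 tags at 7.64-fold in list 1 and 53 tags at 5.67-fold in list 2. It had the lowest ratio of list 2 to list 1 tags of the 17 genes with a shared peak, and its FDRs were 7.47% and 1.48%. The same peaks lay within 1 kb of ARL16. STAM, a partner of HGS, had a list 1 peak alone (4.1-fold, FDR 100%), and STAM2 had none. In ESCRT-II, VPS36 had a list 2 peak of 6.02-fold (FDR 1.38%) with its summit 256.5 bp downstream of the E-box, while SNF8 and VPS25 had no peak.

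Of the 12 ESCRT-III genes, whose products form the filaments that cut the vesicle neck, 6 had a shared peak (with 16.8% of all genes). Most of these peaks were of low fold. CHMP4A, a paralogue of the main filament subunit, had 74 tags at 4.23-fold in list 1 and 94 tags at 19.48-fold in list 2. The fold was 4.61 times higher in list 2, while tags relative to the IP's kept tags were 1.36 times higher. Its summit lay 7.5 bp from the middle of the E-box in list 2 and 87.5 bp from it in list 1. The peak sits between CHMP4A and MDP1, and NEDD8-MDP1, a readthrough gene, ends within 1 kb as well.

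CHMP4B, the main filament subunit, had 58 tags at 6.61-fold in list 1 and 49 tags at 6.15-fold in list 2, with summits 1 bp apart and FDRs of 59.38% and 14.03%. A second list 2 peak, of 3.89-fold with 63 tags, lay 947.5 bp inside the gene and overlapped no list 1 peak. No E-box was in its start window. CHMP5 had 84 tags at 3.82-fold (FDR 100%) and 114 tags at 6.9-fold (FDR 0.42%), with centres 532 and 697 bp outside the gene on the side of BAG1 and summits 712 bp apart. CHMP2B had 82 tags at 4.73-fold (FDR 100%) and 63 tags at 5.79-fold (FDR 0.73%), with summits 567 bp apart. Both genes thus had overlapping peaks whose summits did not coincide.

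CHMP3 had 104 tags at 4.76-fold in list 1 and 69 tags at 4.02-fold in list 2. The FDRs were 100% and 14.65%, and the end of the gene is shared with the readthrough gene RNF103-CHMP3. CHMP7, which also acts at the nuclear envelope, was the ESCRT-III gene with a shared peak away from its ends, 2955.5 bp inside the gene in list 1. It had 84 tags at 6.4-fold (FDR 100%) in list 1 and 72 tags at 7.04-fold (FDR 0.78%) in list 2.

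CHMP1A (5.71-fold), CHMP2A (4.63-fold) and IST1 (4.33-fold) had peaks in list 2 alone, and CHMP1B had one in list 1 alone (5.81-fold, FDR 60.34%). The peaks of CHMP1A, CHMP2A, CHMP1B and IST1 all lay within 1 kb of another protein-coding gene or inside it (SPATA33, UBE2M, GNAL and ZNF821). CHMP4C and CHMP6 had no peak.

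Among the 4 genes of the VPS4 and ALIX group, 1 had a shared peak (with 16.8% of all genes), the gene of ALIX. PDCD6IP encodes ALIX, an adaptor between TSG101 and the CHMP4 proteins, and had 100 tags at 5.99-fold in list 1 and 142 tags at 12.75-fold in list 2. Its summits lay 3 bp apart and 4.5 and 1.5 bp upstream of the middle of the E-box, which begins 105 bases before the start. The FDR was 100% in list 1 and 0.19% in list 2. VPS4B, 1 of the ATPases that disassemble the filaments, had a list 2 peak of 4.82-fold (FDR 0.94%), and VTA1, a VPS4 cofactor, had one of 6.23-fold (FDR 3.66%) that also lay near NMBR. VPS4A, the other ATPase, had none.

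Retromer held the peak of highest fold in list 2 among the 47 genes. VPS26A, a cargo-side subunit of the retromer trimer, had 220 tags at 11.84-fold in list 1 and 285 tags at 24.49-fold in list 2, with an FDR of 0 in both. The list 1 peak spanned positions 69123640 to 69124853 of chromosome 10, with its centre 68.5 bp inside the end of the gene. Its tag counts were the highest of any trafficking gene in both lists, and by fold it ranked 184th (list 1) and 61st (list 2) of 2265 genes.

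VPS35, the scaffold of retromer, had 147 tags at 7.09-fold in list 1 and 193 tags at 10.01-fold in list 2, with summits 3 bp apart and FDRs of 22.08% and 0.29%. The summits lay 8 and 5 bp downstream of its start, and ORC6 lies within 1 kb of the peaks. The start window holds no CACGTG but has a copy of the related CACATG, a motif searched on both strands and found in 1 of the 36 genes and in 11.5% of all genes with a window. It is shown with that copy in capitals (chr16:46689129-46689428, − strand).
VPS35: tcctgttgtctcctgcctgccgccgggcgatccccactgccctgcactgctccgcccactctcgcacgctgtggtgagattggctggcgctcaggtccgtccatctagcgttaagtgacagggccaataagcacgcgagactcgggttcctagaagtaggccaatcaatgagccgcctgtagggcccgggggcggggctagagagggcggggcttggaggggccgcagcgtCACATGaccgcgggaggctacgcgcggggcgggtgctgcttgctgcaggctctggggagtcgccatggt

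The paralogue VPS26B and the third trimer subunit VPS29 had peaks in list 2 alone, of 3.66-fold (FDR 21.02%) and 3.24-fold (FDR 22.96%). The VPS29 value was the lowest fold of the trafficking genes, and NCAPD3 (at VPS26B) and RAD9B (at VPS29) lie within 1 kb of these peaks. Within the trimer, VPS26A and VPS35 thus had shared peaks and VPS26B and VPS29 had none.

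Among the sorting nexins, which bend the membrane of the recycling tubule, SNX2 had 80 tags at 9.1-fold in list 1 and 102 tags at 9.91-fold in list 2. Its folds were the closest of the 4 genes above 8-fold in both lists, and the summits lay 35 and 52 bp downstream of the start. The FDR was 30.44% in list 1 and 0.18% in list 2. Another list 2 peak, of 6.02-fold with 26 tags, lay 3723 bp inside the gene from its nearer end. The start window holds neither CACGTG nor CACATG, and is shown in lower case because SNX2 had the highest lower fold of the genes without the motif (chr5:122774746-122775045, + strand).
SNX2: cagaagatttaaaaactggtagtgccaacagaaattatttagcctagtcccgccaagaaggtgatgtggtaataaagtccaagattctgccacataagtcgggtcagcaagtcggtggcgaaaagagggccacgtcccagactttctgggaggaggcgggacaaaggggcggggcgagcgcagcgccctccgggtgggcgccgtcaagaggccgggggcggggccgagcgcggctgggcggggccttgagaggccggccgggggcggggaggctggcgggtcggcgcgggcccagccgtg

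SNX5 had 45 tags at 4.17-fold (FDR 100%) in list 1 and 70 tags at 6.67-fold (FDR 0.3%) in list 2, in peaks within 1 kb of MGME1. SNX6 had a list 1 peak far inside the gene (5.4-fold, FDR 98.23%). SNX1 had no peak by the 1 kb rule, but lay just outside it: peak centres were 2138 bp from the gene in list 1 (7.47-fold, 139 tags) and 2264 bp in list 2 (8.28-fold, 118 tags).

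GARP had no shared peak at a gene end among its 4 genes, where 11.3% of all protein-coding genes had one. VPS54 had a shared peak 43615.5 bp (list 1) inside the gene, with 45 tags at 9.47-fold and an FDR of 54.36% in list 1, and 44 tags at 7.07-fold and an FDR of 12.25% in list 2. VPS53 had list 2 peaks at an end (5.89-fold, FDR 3.17%) and inside the gene (6.38-fold, FDR 22.93%). VPS51 had a list 2 peak of 6.52-fold (FDR 7.53%) at its 3′ end near TM7SF2, and VPS52 had none.

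**Figure D3:**
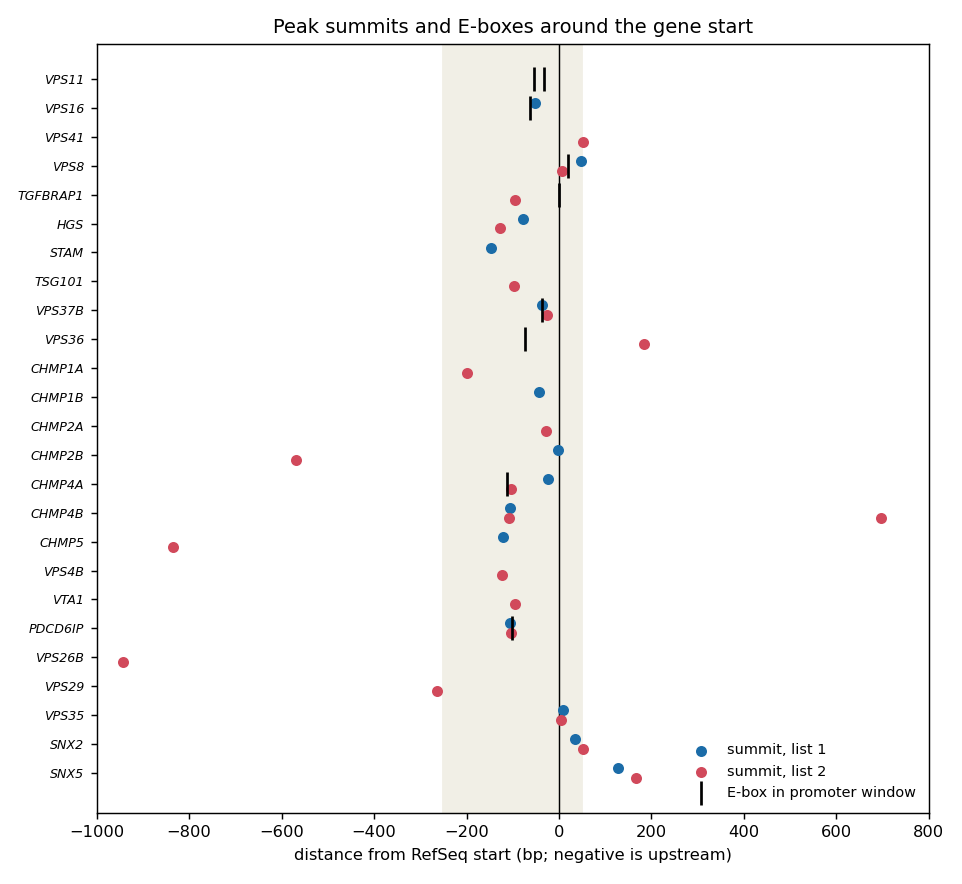
Summits of gene-end peaks in list 1 and list 2, by distance in bp from the nearest RefSeq start, for genes with a start window, with vertical marks at each E-box and the searched window shaded. Summits of both lists fall beside the mark at VPS37B, PDCD6IP and VPS8, and VPS11 has marks and no summit.

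Peaks at gene ends lay close to the start of the gene where the start is known. All 14 such list 1 summits were within 200 bp of a RefSeq start, from 147 bp upstream (STAM) to 128 bp downstream (SNX5), with a median 40 bp upstream. In list 2, 17 of 23 were within 200 bp, with a median 96 bp upstream. VPS51 was the 1 gene-end peak of the 23 at the other end of its gene. Of the 17 shared peaks, 11 lay within 1 kb of no other protein-coding gene. The other 6, at HGS, CHMP3, CHMP4A, CHMP5, VPS35 and SNX5, cannot be assigned to 1 gene by position.

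Shared peaks over a start window were compared by whether that window held CACGTG. In list 2, the 4 with the motif (VPS8, VPS37B, CHMP4A and PDCD6IP) had folds of 12.75 to 19.48, with a median of 18.70. The 7 without it (HGS, CHMP2B, CHMP4B, CHMP5, VPS35, SNX2 and SNX5) had folds of 5.67 to 10.01, with a median of 6.67, so the ranges did not overlap. In list 1 they did overlap, at 4.23 to 11.98 with the motif (median 6.75) and 3.82 to 9.1 without it (median 6.61). Tag counts overlapped in both lists, at 78 to 142 with and 49 to 193 without in list 2. VPS33A, VPS26A, VPS37C and CHMP3 had shared gene-end peaks but no start window, so they are in neither group. Their list 2 folds were 12.43, 24.49, 5.87 and 4.02. Whether the list 2 ranges would stay apart with these genes placed is not known.

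Over all protein-coding genes with a shared peak over a start window, 588 with CACGTG had a median fold of 7.78 in list 1 and 10.80 in list 2, and 1180 without it had 5.18 and 5.87. The separation at the trafficking genes in list 2 runs in the same direction as the medians of all genes. The list 2 ranges of all genes did overlap, at 3.1 to 65.37 with the motif and 2.62 to 34.56 without it. In list 1 the ranges of the trafficking genes overlap, and 4 genes with the motif are few. CACGTG was present in 4 of 11 trafficking genes with a shared gene-end peak and a start window (36.4%, with 31.5% of 1936 such genes overall) and in 4 of 25 without one (16%, with 8.03% of 13907). With the motif counted within 100 bases of the start alone, 2 of the 11 had it (18.2%), below the 21.4% of such genes overall. Across all genes with the motif under a shared peak, the median distance from summit to E-box was 21.5 bp in list 1 and 18.5 bp in list 2.

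**Figure D4:**
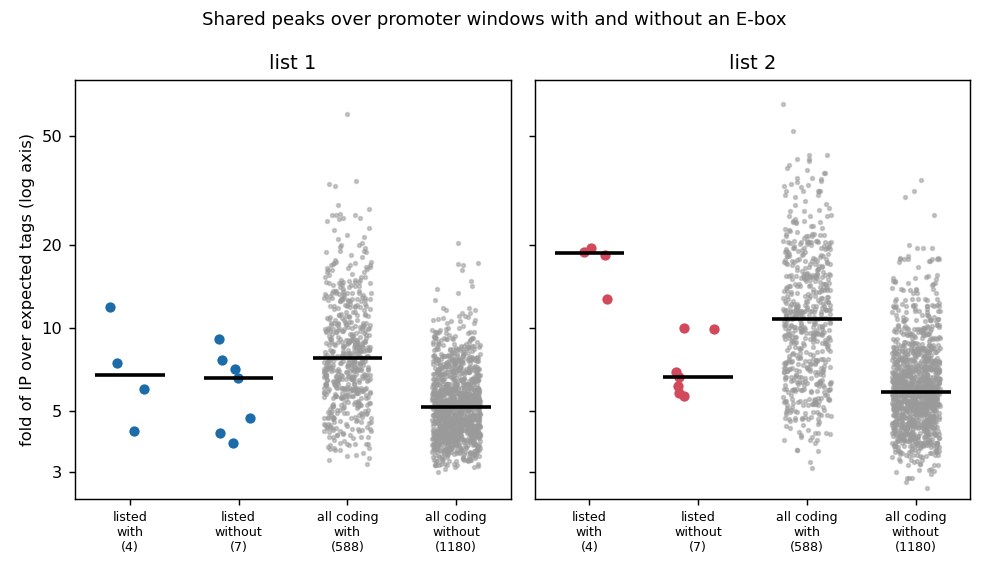
Fold of shared peaks over start windows with and without an E-box (log axis), for the listed genes and for all protein-coding genes, with each gene as a point, its number in parentheses and the median as a bar. In list 2 the 4 listed genes with the E-box (12.75 to 19.48) all lie above the 7 without it (5.67 to 10.01), and in list 1 they overlap.

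At the 17 shared peaks, the medians of tags, fold and width were each somewhat higher in list 2. Median tags were 84 in list 1 and 94 in list 2, median folds 6.61 and 7.07, and median widths 1076 and 1126 bp. For all 5336 list 1 peaks and 5346 list 2 peaks shared in the genome, median tags were 60 and 68, folds 6.37 and 7.03, and widths 866 and 979 bp. Among the genes with a shared gene-end peak alone, the 15 trafficking genes had median folds of 6.61 (list 1) and 9.91 (list 2), and all 2265 such genes had 5.7 and 6.64. Median tags were 100 and 102 at the 15 genes, beside 86 and 101 at all 2265. Median widths were 1214 and 1174 bp, beside 1093 and 1325 bp. Against other gene-end peaks, the trafficking genes' peaks were thus wider in list 1 and narrower in list 2, with nearly equal tags in list 2.

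The fold was higher in list 2 at 12 of the 17 genes, and so were tags per 1000000 kept tags, also at 12 of 17. With shared gene-end peaks alone, the fold was higher in list 2 at 11 of the 15 trafficking genes, close to the 69.6% of all 2265 genes. No such share of all genes was computed for tags. Summits lay a median of 36 bp apart and within 100 bp at 14 of the 17, with VPS37C, CHMP2B and CHMP5 as the exceptions. For shared gene-end peaks the median was 36 bp at the 15 trafficking genes and 49 bp at all 2265 genes. The share of all genes with summits within 100 bp was not computed. An FDR of 100% in list 1 was found at 8 of the 17 genes. Among shared gene-end peaks it was found at 7 of the 15 trafficking genes and at 36.2% of all 2265 genes.

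**Figure D5:**
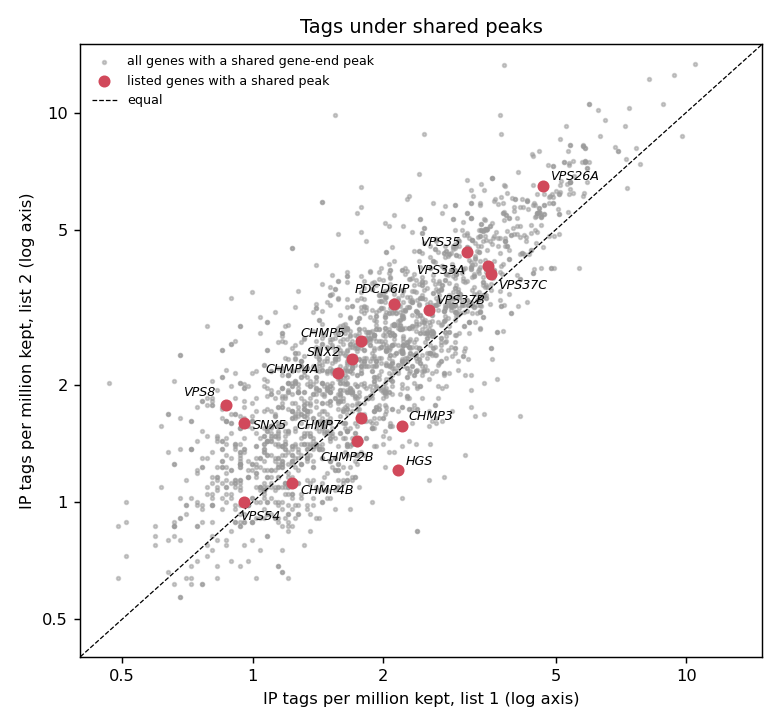
IP tags per 1000000 kept tags under shared peaks, list 1 against list 2 (log axes), with the 17 listed genes in red, all 2265 genes with a shared gene-end peak in grey and equality as a dashed line. VPS26A is the highest listed gene (4.66 and 6.49 tags per 1000000) and HGS lies farthest below the line (2.16 and 1.21).

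Other genes of the same routes, such as the WASH and retriever complexes, the SNARE proteins and the ESCRT adaptors, were counted by the same rules. Of 62 such genes, 17 had a shared gene-end peak (27.4%, with 11.3% of all genes). TOM1, an endosomal adaptor for ubiquitinated cargo, had the strongest, with 23.15-fold and 134 tags in list 1 and 20.53-fold and 160 tags in list 2. VPS50, which takes the place of VPS54 in the related complex EARP, had 10.9-fold and 15.71-fold. None of the 4 GARP genes had a shared gene-end peak, but with 11.3% of all genes having one, 4 genes allow no contrast with VPS50.

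WASHC4, a subunit of the WASH complex that builds actin on retromer tubules, had 8.95-fold in list 1 and 18.1-fold in list 2. TBC1D5, a RAB7 GTPase-activating protein that binds retromer, had 8.73-fold and 10.76-fold. VPS26C, the VPS26 paralogue of the retriever complex, had 8.54-fold and 19.13-fold. All 5 had CACGTG in a start window. They were picked for the highest lower folds, and over all genes the median folds were higher with the motif. Of the 15 related genes with both a window and a shared gene-end peak, 8 had it (53.3%, with 31.5% of all such genes). Besides these 5, shared gene-end peaks were found at MON1B, RMC1, VPS45, RABEP1, PTPN23, MITD1, TOLLIP, WASHC5, VPS13C, STX6, ARL1 and TMF1. USF1 itself had no peak in either list.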

How the data were processed

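Per the file headers, MACS 1.4.2 compared IP 1 with input 1 and IP 2 with input 2 (p cutoff 1e-05), kept at most 1 tag per position and did not pool replicates. The submitters' processing notes also name Bowtie2, deepTools, HOMER and GRCh38, without saying what each did. The deposited lists hold, per peak, an unscaled tag count, a fold (ratio to the expected tags), a score (minus 10 times log10 of the caller's p) and a percent FDR.

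From these, peaks were assigned to RefSeq GRCh38.p14 genes by centre ((start+end)/2, 1 kb), shared peaks were found by overlap of at least 1 bp, and tags were divided by the IP's kept tags and multiplied by 1000000. Where a gene had several shared pairs, the pair with the higher lower fold was taken. The work used Python 3.11.15, numpy 2.4.6, pandas 2.3.3 and matplotlib 3.10.9. Assignment was tested on simulated peaks at 200 genes, of which 200 were recovered. Every listed gene is named. Promoter windows were printed for the 4 genes of highest lower fold over a window and for 1 gene with CACGTG and no peak, chromosome 8 left out. Sequences are RefSeq's. Exons and introns were not annotated, and for genes with no matched start window the 5′ and 3′ ends were not told apart. The members and lists were chosen with earlier results of these data known. Medians, shares and counts are descriptions, and they cover neither counting error nor variation between cultures.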

Additional observations from a re-analysis of the deposited data

How the results depend on the processing

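Stricter thresholds reduced every count. With folds of 8 or more required, 5 of the 47 genes had a list 1 peak (5.33% of all genes), 8 a list 2 peak (9.67%), 4 a shared peak (3.28%) and 4 a shared gene-end peak (2.07%), and 7 of 62 related genes had a shared gene-end peak. At a score of at least 100 (p of at most 1e-10) these counts were 10 (9.36% of all genes), 20 (22.5%), 7 (6.25%) and 7 (4.65%), and 11 for related genes. At an FDR of at most 5% they were 3 (1.33%), 21 (25.9%), 3 (1.3%) and 3 (1.08%), and 2 for related genes. Leaving out 1 replicate, genes with a peak in the remaining list numbered 23 (list 1, 25.9% of all genes) or 33 (list 2, 47.0%). At gene ends they numbered 18 (list 1, 14.9% of all genes) or 30 (list 2, 30.1%), with 21 or 34 related genes. Summits in place of centres, windows of 500 or 5000 bp, nearest genes alone and an overlap of at least 50% of both peaks kept each count within 1.5 times. The largest of these changes came with nearest genes alone. List 2 peaks were then at 25 of the 47 genes (41.4% of all genes), where the main rule gave 33 (47.0%). List 1 peaks were at 22 (22.2%), shared peaks at 14 (13.4%) and shared gene-end peaks at 12 (8.82%). The median fold, as the mean of both lists, was 6.84, and 7.50 with the stricter overlap, where HGS dropped out. For gene-end peaks alone the medians were 8.26-fold, 101 tags and 1194 bp. With peaks near no other protein-coding gene, 11 genes kept a shared peak (11.9% of all genes). Genes with CACGTG and a shared gene-end peak numbered 4 of 11 (36.4%, with 31.5% of all such genes). With the motif within 100 bases of the start they numbered 2 of 11 (18.2%), below the 21.4% of all such genes, so the order turned round. Where a peak in either list was enough they numbered 7 of 25 (28%, with 17.8%). The restriction on neighbours, the comparison of folds by motif and the count at the 5′ end alone (11 of 36 genes, with 12.6% of all genes) were added after seeing the data. No paired analysis was possible because no result here comes from a test, and the lists carry no input tags per peak. List 1's FDRs and the lack of input tags per peak limit how far weak single-list peaks can be read.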
